A study of Danio rerio with 6 samples.

Results

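The transcripts described here are 313 long noncoding RNAs (lncRNAs) of zebrafish ZF4 cells whose mean level in cold acclimated cells was at most 0.25 of that in control cells while still above 0. They were chosen from 8363 assembled lncRNA transcripts at 7807 loci by 4 limits on the deposited mean FPKM, the fragments per length of transcript and per total of fragments sequenced. The cold mean had to be above 0, the control mean at least 1.5 FPKM and the average of both means at most 10 FPKM. The ratio (cold + 0.1)/(control + 0.1) had to be at most 0.25, a 4-fold lower value, which is -2 on the log2 scale. The 313 transcripts came from 293 loci.

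ZF4 is a fibroblast line derived from zebrafish embryos, and a single line cannot show how other zebrafish cells respond. Cold acclimated cells were kept for 30 days at 18°C and control cells at 28°C, in the same medium, with 3 cultures in each group. Ribosomal RNA was removed from total RNA before paired-end sequencing. The table holds 1 mean per group and lncRNA transcripts alone, so the spread between cultures, the depth of each library and the fibroblast markers were not analysed here. The p-values and FDR (false discovery rate) that the authors listed were not used. No difference below therefore has an error, an n or a test over cultures, and every value is a description.

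lncRNAs are long transcripts with little or no coding capacity. Some are spliced and capped like messenger RNA, while others are short-lived, unspliced products of enhancers, promoters, introns or the opposite strand of a gene. Those whose action is known can recruit chromatin complexes, hold proteins or miRNAs, or affect a neighbouring gene through the act of transcription, but for most transcripts of this kind no role is known. Cold water slows the metabolism of fish, whose cells take the temperature of their surroundings, and acclimation over weeks is accompanied by changes of gene expression.

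Designed qRT-PCR primers of the study for a pair of these transcripts, MSTRG.12377.1 and MSTRG.2490.1, are printed here 5′ to 3′. They are printed because they were designed to amplify these transcripts, so another laboratory could use them. Their match to the transcripts was not checked here, since no GRCz10 sequence was at hand. All positions are on the GRCz10 assembly. MSTRG.12377.1 is a transcript of 1 exon and 2115 nt at chr2:3451483-3453597 with no gene named at its locus, and MSTRG.2490.1 is a transcript of 2 exons and 1853 nt at chr11:5265293-5267327, also with no gene named.
MSTRG.12377.1 forward: ggtgcctctgtatgttatcattg
MSTRG.12377.1 reverse: ggcatttagccacaagtgaag
MSTRG.2490.1 forward: aatatgtgccaggagctacg
MSTRG.2490.1 reverse: gtcagtcagtcagtcagaacag
The level of MSTRG.12377.1 was 0.316 FPKM in cold acclimated cells, against 1.79 FPKM in control cells, a log2 ratio of -2.19. That of MSTRG.2490.1 was 0.361 FPKM in cold acclimated cells, against 4.04 FPKM in control cells, a log2 ratio of -3.17. MSTRG.2490.1 lies in a stretch of chromosome 11 where nearly every listed transcript was low in the cold, described further on.

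The limits of the rule account for all transcripts with a ratio of at most 0.25. There were 1374 of them, 16.4% of all transcripts listed, of which 367 had a listed cold mean of 0. Of those above 0 in the cold, 690 had a control mean below 1.5 FPKM. Another 4 had an average above 10 FPKM, leaving the 313. Among the 2547 transcripts that met the other limits, 12.3% had such a ratio. Because the ratio itself chose the transcripts, nothing is read from these shares. The 2234 transcripts that met the level limits but had a ratio above 0.25 serve below as a comparison at like levels, beside all 8050 remaining transcripts. The set has no gap at its edge. Just inside it, MSTRG.8239.1 on chromosome 16 had 1.14 FPKM in cold acclimated cells, against 4.84 FPKM in control cells, and just outside it MSTRG.30988.1 on an unplaced scaffold had 0.396 FPKM in cold acclimated cells, against 1.88 FPKM in control cells.

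In control cells, as the rule required, the 313 transcripts had a higher median level than the whole table, 2.28 beside 1.12 FPKM, and in cold acclimated cells a lower one, 0.321 beside 0.736 FPKM. The mean levels ran between 0.000525 and 2.73 FPKM in cold acclimated cells, against 1.5 to 13.7 FPKM in control cells. In cold acclimated cells 244 of them (78.0%) were under 0.5 FPKM and 21 were above 1 FPKM, while in control cells 211 (67.4%) were under 3 FPKM and 6 were above 10 FPKM. Their log2 ratios, cold over control with 0.1 FPKM added to both, had a median of -2.49 and quartiles of -2.92 and -2.21. Over all 8363 transcripts the median was -0.61, so the median of the set lay -1.88 from that of the table. With the cold means scaled so that the median log2 ratio of the table was 0, the same rule kept 150 of the 313 transcripts and took in no other. At such low levels the added 0.1 FPKM draws the log2 ratio of the lowest transcripts toward 0, which makes their difference look smaller.

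**Figure D1:**
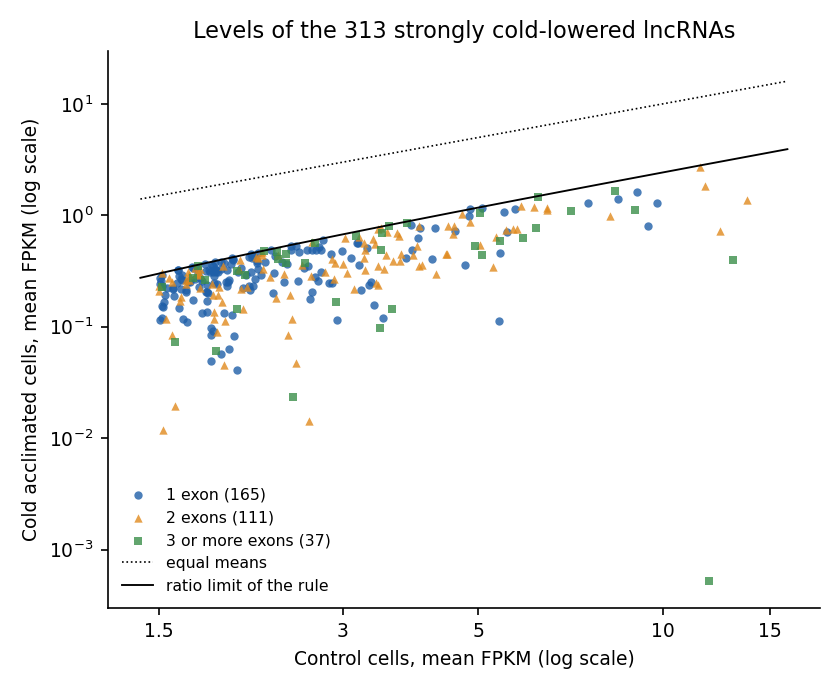
Mean FPKM of each of the 313 transcripts in control cells (horizontal, log scale) and cold acclimated cells (vertical, log scale), with blue circles for 1 exon (165 transcripts), orange triangles for 2 exons (111) and green squares for 3 or more (37). All points lie under the line of the ratio limit by construction, most between 0.1 and 1 FPKM in the cold, and the lowest point is the itgav transcript at 0.000525 FPKM.

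The lowest ratio belonged to MSTRG.30077.8 at chr9:11624785-11671296, a transcript of 3 exons at itgav, which encodes the alpha V integrin subunit. Its level was 0.000525 FPKM in cold acclimated cells, against 11.9 FPKM in control cells, a log2 ratio of -6.90. MSTRG.3605.7 on chromosome 12, at nrbf2b, followed with 0.399 FPKM in cold acclimated cells, against 13.0 FPKM in control cells. Both lie at loci with other listed transcripts, which are described further on. Among transcripts listed alone at their locus, MSTRG.22666.1 on chromosome 4 had the lowest ratio, with 0.112 FPKM in cold acclimated cells, against 5.41 FPKM in control cells (log2 ratio -4.70). MSTRG.14828.2 at tlr5b, a receptor of bacterial flagellin, had 0.0143 FPKM in cold acclimated cells, against 2.64 FPKM in control cells, beside MSTRG.14828.1 of the same locus with 1.68 FPKM in cold acclimated cells, against 2.60 FPKM in control cells. The ratio was at least 8-fold lower for 71 of the 313 (22.7%) and at least 16-fold lower for 8.

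The 313 were longer and more often spliced than all remaining transcripts. Beside transcripts at like levels, the shares of single-exon, short and long transcripts lay close, while transcripts with 3 or more exons were fewer. Single-exon transcripts made up 165 of the 313, 52.7% (95% Wilson interval 47.2 to 58.2%), against 51.6% of the transcripts in the same level window and 70.9% of all remaining ones. The median length was 840 nt (95% interval 703 to 1060), against 922 nt in the same level window (873 to 961) and 523 nt in all remaining transcripts. Transcripts under 300 nt made up 11.2% of the set, against 10.2% in the level window and 24.1% of all remaining ones, and those over 2000 nt 22.4% of the set, against 20.6% in the level window and 10.2% of all remaining ones. The intervals count transcripts and say nothing of the spread between cultures, and transcripts of 1 locus are not independent. Transcripts with 3 or more exons were 11.8% of the set (8.70 to 15.9%), against 18.2% in the same level window (16.6 to 19.8%) and 10.4% of all remaining transcripts. With 1 transcript kept per locus they were 7.41% of the set, 14.8% of the level window and 7.77% of all remaining transcripts.

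The longest of the set, MSTRG.30177.2 on chromosome 9, has 2 exons and 11804 nt and had 0.557 FPKM in cold acclimated cells, against 3.39 FPKM in control cells. The shortest, MSTRG.6503.1 on chromosome 14, has 204 nt of exon over an interval of 43885 nt and had 0.446 FPKM in cold acclimated cells, against 4.42 FPKM in control cells. The most exons, 7, were those of MSTRG.26454.7 on chromosome 6, with 1.65 FPKM in cold acclimated cells, against 8.37 FPKM in control cells. Inside the set, where the rule bounds the ratio, its median log2 value was -2.43 for transcripts of 1 exon, -2.66 for 2 exons and -2.48 for 3 or more. It was -2.82 for the 63 transcripts that share a locus with another listed one, 12 of them from MSTRG.25023. For the 250 listed alone it was -2.44. Median control levels differed as well, at 1.99, 2.81 and 3.16 FPKM by exons, and at 3.46 FPKM for the 63, against 2.09 FPKM for the 250.

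A gene was named in the table for fewer of the spliced transcripts. Among the 148 transcripts of the set with 2 or more exons, 54 had a gene named, 36.5% (95% Wilson interval 29.2 to 44.5%), against 52.1% in the same level window (49.1 to 55.0%) and 52.3% of all remaining transcripts (50.3 to 54.3%). With 1 transcript per locus the share was 41.0% in the set (32.0 to 50.5%), against 52.3% in the level window (49.1 to 55.6%), intervals that overlap, and 53.1% of all remaining transcripts. Among transcripts of 1 exon a gene was named for 34.5% of the set, 32.6% of the level window and 32.7% of all remaining ones. The spliced transcripts of the set also spanned longer intervals of the genome, with a median of 6332 nt, against 4597 nt in the level window and 4185 nt in all remaining transcripts. With 1 transcript per locus the median was 5778 nt in the set (95% interval 2997 to 7185). It was then 4236 nt in the level window (3780 to 4958), so the intervals overlap, and 3974 nt in all remaining transcripts.

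**Figure D2:**
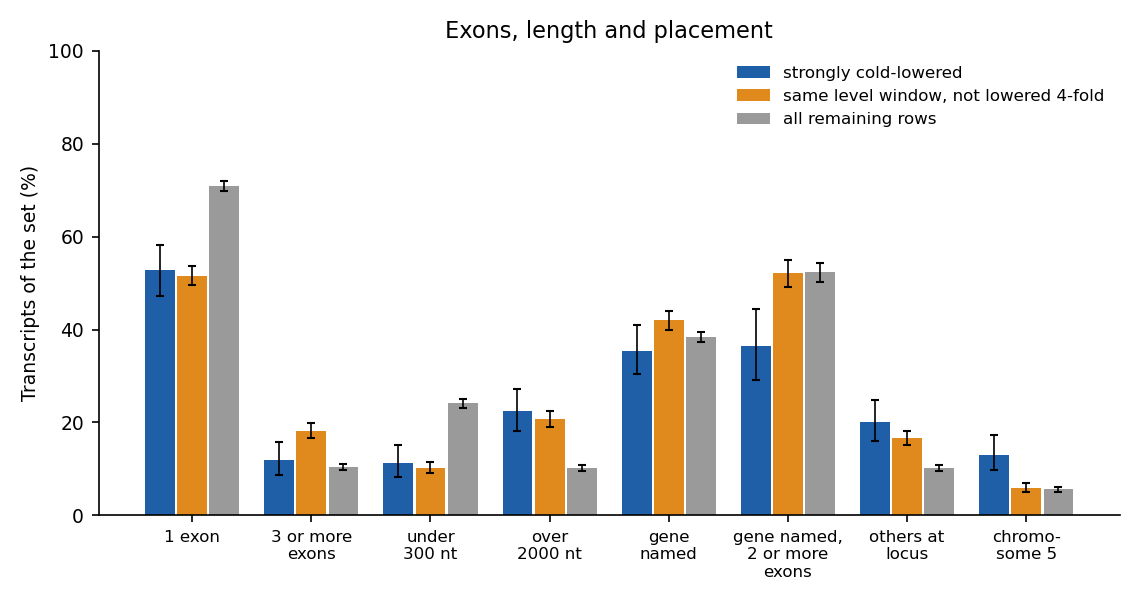
Share of transcripts (%) with each property, with bars from 0 and 95% Wilson intervals, for the 313 strongly cold-lowered lncRNAs (blue), the 2234 others of the same level window (orange) and all 8050 remaining transcripts (grey). The blue and orange bars stand close together for 1 exon and for length, and apart for 3 or more exons (11.8 and 18.2%), for a named gene among spliced transcripts (36.5 and 52.1%) and for chromosome 5 (13.1 and 5.91%).

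The set reached all 25 chromosomes, with 3 to 41 transcripts on each and a median of 11, and 24 transcripts lay on 13 unplaced scaffolds. Chromosome 5 held the most, 41 transcripts or 13.1% of the set, against 5.91% of the same level window and 5.58% of all remaining transcripts. With 1 transcript per locus chromosome 5 held 10.0% of the set, against 5.57% of the level window and 5.49% of all remaining transcripts, since 12 of its transcripts came from 1 locus. As a share of the transcripts in the level window on the chromosome, the set ran between 4.17% on chromosomes 21 and 22 and 23.7% on chromosome 5. The median was 12.0%, with 21.2% on chromosome 23 and 17.8% on chromosome 11. Single stretches, described further on, held 9 of the 14 on chromosome 23 and 9 of the 16 on chromosome 11. On chromosome 5, 17 of the 41 lay in 1 such stretch and 6 in another.

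Lower levels in the cold were also listed for many neighbours of these transcripts. For 236 of the 313 a listed transcript of another locus lay within 50 kb, 199 different neighbours in all, and the nearest one had a median log2 ratio of -2.03. Around the transcripts of the same level window that median was -0.63, and around all remaining transcripts -0.66. Of the nearest neighbours of the set, 177 (75%) were at least 2-fold lower in the cold and 5.51% at least 2-fold higher, where 38.8% of all listed transcripts were 2-fold lower and 14.6% were 2-fold higher. Around the level window 36.9% were 2-fold lower and 10.0% were 2-fold higher. With overlapping neighbours left out, the median was -2.01 and 80.7% were 2-fold lower. Another of the 313, with a ratio fixed by the rule, was the nearest neighbour in 66 cases (28.0%), against 3.63% around the level window. Without such cases, 170 transcripts of the set had a neighbour, 144 different neighbours in all, with a median log2 ratio of -1.51. Counted once for each of the 170, 111 neighbours (65.3%) were 2-fold lower and 7.65% were 2-fold higher. A neighbour can thus count several times, as MSTRG.25033.1 did for transcripts of the locus MSTRG.25023. The like median was -0.58 around the level window, where 34.5% were 2-fold lower, and -0.63 around all remaining transcripts. The neighbours were measured in the same libraries as the set, and neither strand nor a shared primary transcript could be read from the table, so adjoining pieces of 1 longer RNA and separate transcripts cannot be told apart.

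**Figure D3:**
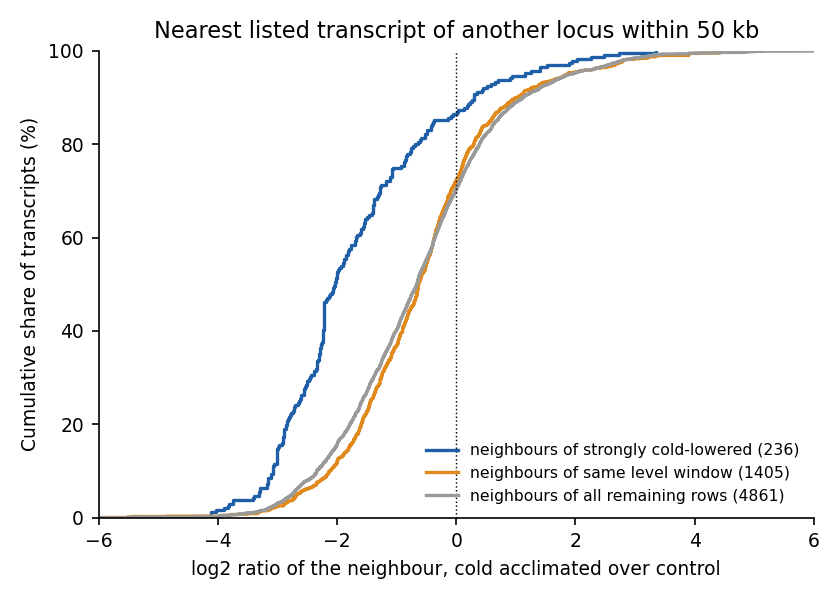
Cumulative share (%) of the log2 ratio, cold acclimated over control, of the nearest listed transcript of another locus within 50 kb, for 236 strongly cold-lowered lncRNAs (blue), 1405 of the same level window (orange) and 4861 of all remaining ones (grey). The blue curve lies to the left, with a median of -2.03 beside -0.63 and -0.66, and 66 of its neighbours are themselves in the set.

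Runs of at least 3 of these transcripts with gaps of no more than 50 kb were found at 20 places and held 99 of the 313 (31.6%). In 17 of the 20 the transcripts of the set came from at least 3 loci, and in the others from fewer. Runs were not sought among the other transcripts, so no like share stands beside 31.6%. Within the runs lay 75 other listed transcripts, of which 64 were at least 2-fold lower in the cold and 2 were 2-fold higher. Many of the 75 shared a locus with a transcript of the set, as at MSTRG.31334 and MSTRG.3725, and are not independent of it. The median log2 ratio of the 75 was -1.73. Over all listed transcripts 38.8% were 2-fold lower and 14.6% were 2-fold higher. With 1 transcript per locus, 62 transcripts lay in runs. In 7 runs there were 5 or more, 57 transcripts in all, and apart from the run at piwil2 and htr7c no gene was named for their transcripts.

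The longest run lay at chr5:42519075-42684592 and held 17 of the 19 transcripts listed there, none of 1 exon, from 4 loci. Their levels ran between 0.118 and 0.996 FPKM in cold acclimated cells, against 2.47 to 12.4 FPKM in control cells, and their median log2 ratio was -2.97. The locus MSTRG.25023 gave 12 of them, and its transcripts summed to 6.14 FPKM in cold acclimated cells, against 57.6 FPKM in control cells (log2 ratio -3.21). Its highest transcript, MSTRG.25023.16, had 0.722 FPKM in cold acclimated cells, against 12.4 FPKM in control cells. The other 2 transcripts of the run were low as well, MSTRG.25024.1 with 1.71 FPKM in cold acclimated cells, against 19.3 FPKM in control cells, and MSTRG.25033.1 with 0.0155 FPKM in cold acclimated cells, against 0.439 FPKM in control cells. The nearest transcript with a gene named outside the run, at rhobtb2a, was 203 kb away.

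MSTRG.2490.1, one of the transcripts with primers above, belonged to a run at chr11:5149661-5281361 in which 9 of 10 transcripts were in the set, each from its own locus. They had 0.158 to 0.628 FPKM in cold acclimated cells, against 1.52 to 5.91 FPKM in control cells, with log2 ratios between -3.75 and -2.30. The exception, MSTRG.2482.1, was listed at 0 in cold acclimated cells, against 2.34 FPKM in control cells, and so failed only the limit on the cold mean. At 68.2 kb beyond the run lay the transcripts named for ptprga, which encodes a receptor tyrosine phosphatase. All 5 of those listed were at least 2-fold lower in the cold, and 2 were in the set. MSTRG.2496.1, for example, had 0.491 FPKM in cold acclimated cells, against 3.26 FPKM in control cells.

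The run at chr23:38492785-38566724 held 9 of 12 transcripts, 8 of them with 1 exon, with 0.0922 to 0.796 FPKM in cold acclimated cells, against 1.66 to 4.55 FPKM in control cells. At chr12:39155780-39224285 there were 6 of 16, all with 1 exon, and the other 10 were at least 2-fold lower too. The nearest transcript with a gene named lay 590 kb from the run on chromosome 23 and 781 kb from that on chromosome 12. Such distances, here and for the run on chromosome 5, reach to listed lncRNAs and not to the nearest gene, which was not looked up. A run at chr9:16942871-16981259 held 5 of 9, among them the longest transcripts of the set. At chr16:18284021-18370235 there were 5 of 8, and here the surroundings were mixed, since 1 of the other 3 transcripts was 2-fold lower, 1 was 2-fold higher and 1 lay between.

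**Figure D4:**
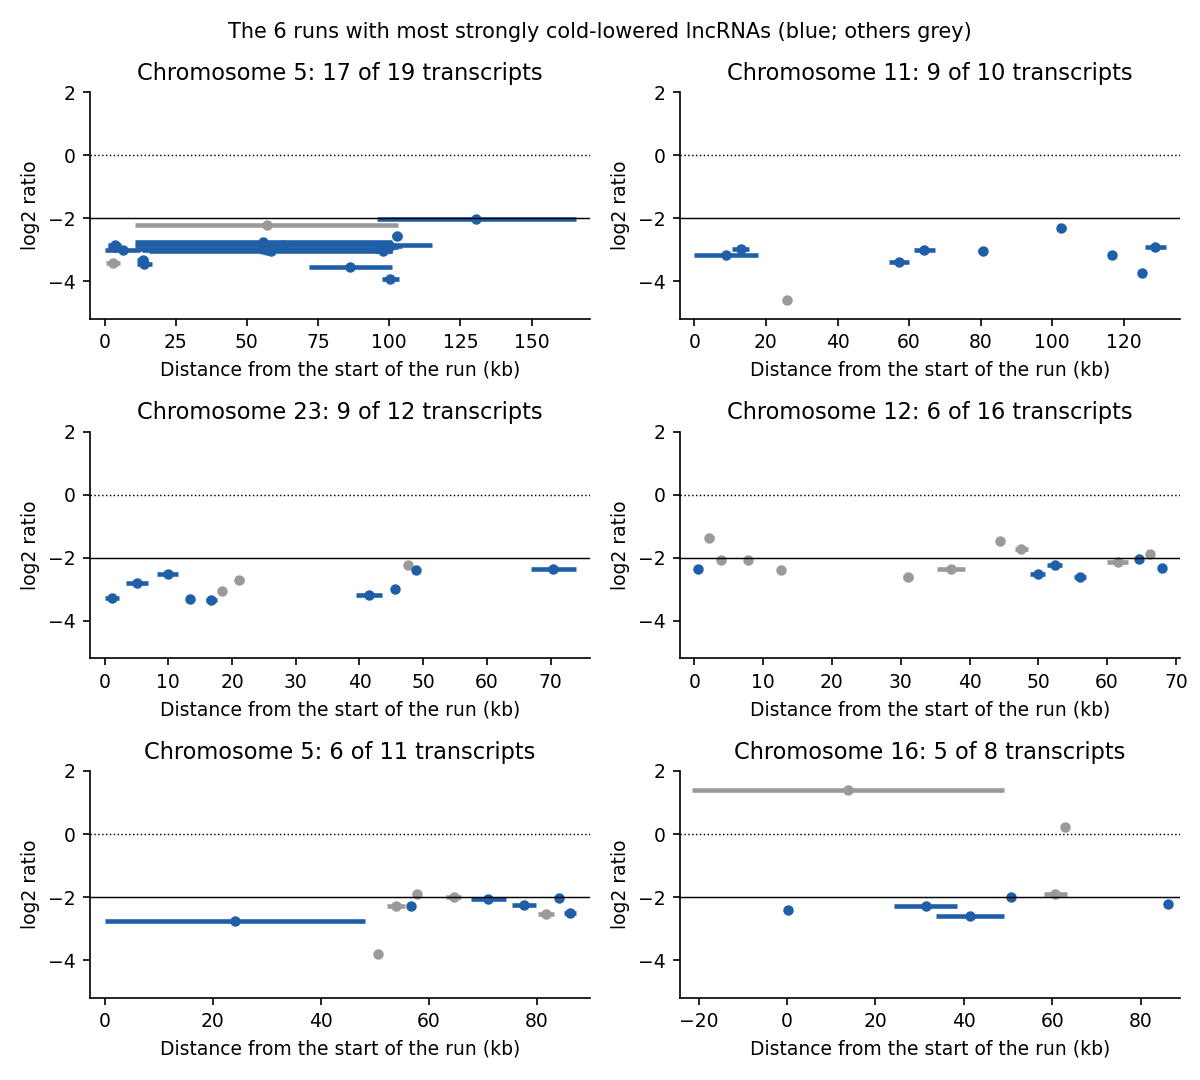
Log2 ratio, cold acclimated over control, of each listed transcript in the 6 runs with most strongly cold-lowered lncRNAs (blue, others grey), against distance from the start of the run in kb, with bars for the interval of each transcript and a line at -2. Blue and grey transcripts lie below 0 together in 5 panels, and the panel of chromosome 16 holds 2 grey transcripts above 0.

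A gene was named for 111 of the 313 transcripts, at 92 genes, and for 202 none was named. For 47 of the genes the transcript in the set was the only one listed. At 12 genes there were 2 or more, and of these tenm3, which encodes a teneurin of neuronal wiring, alone had a transcript that was 2-fold higher in the cold. Over all 92 genes, 8 had such a transcript. A named gene says which gene the table places at the transcript, and the protein-coding transcripts of these genes were not analysed here.

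At htr7c, which encodes a serotonin receptor, 11 transcripts were listed, each at its own locus and each at least 2-fold lower in cold acclimated cells, and 5 were in the set. The highest of these, MSTRG.24207.1 at chr5:16027922-16034428, had 0.423 FPKM in cold acclimated cells, against 2.11 FPKM in control cells (log2 ratio -2.08). They lay in 1 run with MSTRG.24200.1, named for piwil2, a Piwi protein of the germ line, which had 0.217 FPKM in cold acclimated cells, against 2.04 FPKM in control cells. At gse1, whose mammalian counterpart belongs to a histone deacetylase complex, 4 of 5 transcripts were in the set. The lowest of them, MSTRG.10827.1, had 0.245 FPKM in cold acclimated cells, against 2.88 FPKM in control cells (log2 ratio -3.11), and the fifth, MSTRG.10829.1, missed the set through its control mean, with 0.114 FPKM in cold acclimated cells, against 1.19 FPKM in control cells.

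In the group of adhesion and axon guidance genes, 11 of 142 listed transcripts were in the set. They were 21.2% of the 52 in the level window. Over all transcripts of the level window the share was 12.3%, and over those with a gene named it was 10.6%. Of all 142, 68 were 2-fold lower and 27 were 2-fold higher in the cold, where the shares over all listed transcripts were 38.8% and 14.6%. At pcdh7b, a protocadherin, 3 of 4 were in the set and the fourth was also low. MSTRG.28416.1 at chr7:63104895-63116676 had 0.0850 FPKM in cold acclimated cells, against 2.44 FPKM in control cells (log2 ratio -3.78). MSTRG.467.1 at slit2, which encodes a repulsive guidance ligand, had 0.409 FPKM in cold acclimated cells, against 4.20 FPKM in control cells. The semaphorin genes sema3gb and sema4c, also guidance ligands, had 1 transcript each, that at sema3gb with 1.11 FPKM in cold acclimated cells, against 6.46 FPKM in control cells. MSTRG.30171.1 at epha3, an ephrin receptor, had 0.310 FPKM in cold acclimated cells, against 1.88 FPKM in control cells. At the same gene MSTRG.30168.1 went the other way, with 0.814 FPKM in cold acclimated cells, against 0.109 FPKM in control cells. MSTRG.30168.2, of the same locus as MSTRG.30168.1, was listed at 0 in cold acclimated cells, against 3.75 FPKM in control cells. MSTRG.30169.1, also at epha3, had a log2 ratio of -1.96.

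Genes of channels and neurotransmitter receptors gave 11 of 109 transcripts, of which 5 were those at htr7c. The 11 were 40.7% of the 27 in the level window, beside 12.3% over all. Of all 109, 53 were 2-fold lower and 18 were 2-fold higher in the cold, where the shares over all listed transcripts were 38.8% and 14.6%. MSTRG.6076.1 at drd1a, a dopamine receptor, had 0.0608 FPKM in cold acclimated cells, against 1.86 FPKM in control cells (log2 ratio -3.61). MSTRG.6988.1 at scn2b, the beta subunit of a sodium channel, had 0.165 FPKM in cold acclimated cells, against 2.93 FPKM in control cells. MSTRG.6324.1 at gria1a, an AMPA-type glutamate receptor subunit, had 0.492 FPKM in cold acclimated cells, against 3.89 FPKM in control cells, while MSTRG.6325.1 at this gene had 1.13 FPKM in cold acclimated cells, against 1.10 FPKM in control cells. The others lay at asic2, cacnb3a and kcnip3b.

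The list of kinase, GTPase and phosphatase signalling genes gave 16 of 166 transcripts, 35.6% of the 45 in the level window beside 12.3% over all. It also holds other signalling genes, such as the coreceptor tgfbr3. Its symbols did not take in rps6kb1a, pimr198, pimr59 or dnm1b, with 1 transcript each in the set. With 0.5 FPKM added to both means this list gave only 2 of the 95 transcripts then in the set. With an 8-fold limit on the ratio it gave 2 of 71, and after scaling 9 of 150. Of all 166, 79 were 2-fold lower and 21 were 2-fold higher in the cold, where the shares over all listed transcripts were 38.8% and 14.6%. At tgfbr3, which encodes the TGF-beta coreceptor betaglycan, 3 of 4 transcripts were in the set and all 4 were at least 2-fold lower, with MSTRG.26243.1 at 0.449 FPKM in cold acclimated cells, against 3.74 FPKM in control cells. The receptor tyrosine phosphatase genes ptprga and ptprua had 2 each and ptprsa 1. Among growth factor receptors, MSTRG.12403.1 at egfra had 0.559 FPKM in cold acclimated cells, against 3.24 FPKM in control cells. MSTRG.31501.1 at PDGFRB had 0.192 FPKM in cold acclimated cells, against 1.84 FPKM in control cells, and MSTRG.10691.1 at igf1ra had 0.333 FPKM in cold acclimated cells, against 1.90 FPKM in control cells. The other transcript at igf1ra, MSTRG.10690.1, had 2.52 FPKM in cold acclimated cells, against 2.30 FPKM in control cells. Inside the cell, gna11b, a G protein alpha subunit, and rasgef1bb, a Ras exchange factor, had 1 transcript each.

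The transcription factor list gave 5 of 141 transcripts, 10.6% of the 47 in the level window. Of the 5, 2 lay at mef2ca, a MADS-box factor of heart, muscle and jaw. MSTRG.2266.4 there had 1.12 FPKM in cold acclimated cells, against 9.0 FPKM in control cells (log2 ratio -2.90). The chromatin list gave 2 of 36, 11.1% of the 18 in the level window, at jarid2b, a partner of Polycomb repressive complex, and BAZ2B. It did not take in gse1, described above, with 4 transcripts in the set. Genes of the cytoskeleton gave 5 of 64, 29.4% of the 17 in the level window. Among them MSTRG.21261.2 at CAMSAP3, a protein of microtubule minus ends, had 0.0119 FPKM in cold acclimated cells, against 1.53 FPKM in control cells. Beside it, MSTRG.21261.1 of the same locus had 2.14 FPKM in cold acclimated cells, against 1.94 FPKM in control cells. Extracellular matrix gave 1 of 43 (mfap2), 7.69% of the 13 in the level window. The transporter list gave 1 of 95 (slc41a2a), 4.35% of the 23 in the level window. Its symbols did not take in slc12a10.3, where MSTRG.27217.1 was in the set too. The Wnt, BMP, FGF and Notch list gave 1 of 40 (ror1), 9.09% of the 11 in the level window. The list of RNA binding and splicing genes gave none of 35, of which 12 were in the level window. Its symbols did not take in snrnp35, where MSTRG.2294.1 was in the set. Of all transcripts in the level window 12.3% were in the set, and of those with a gene named 10.6%.

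Together the lists held 52 of the 313, 19.7% of the listed transcripts in the level window at their genes. The share was 7.51% at named genes of no list and 13.5% where no gene was named. Genes of no list include some of like function, such as gse1, slc12a10.3, snrnp35, plagl2 and rps6kb1a. These shares thus compare lists of symbols and are not a split by function. The lists were also chosen with earlier results of these data known. All transcripts at genes of the lists, whatever their level, had a median log2 ratio of -0.80, those at other named genes -0.47 and those with no gene named -0.64. Some of the listed genes gave several transcripts, as htr7c, pcdh7b and tgfbr3 did, so these counts are not counts of independent loci. With 0.5 FPKM added to both means the adhesion list gave 6 and the channel list 3 of a set that fell to 95. With the 8-fold limit they gave 5 and 2 of 71, and after scaling 7 and 6 of 150. The share of the set at genes of any list was 16.6%, against 10.1% of all remaining transcripts. It became 14.7% with 0.5 FPKM, 15.5% with the 8-fold limit and 18.0% after scaling.

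Where a locus held other transcripts, these did not always follow the one in the set. The 63 transcripts of this kind came from 43 loci with 94 other listed transcripts. Of these others, 50 were at least 2-fold lower in the cold, 14 were at least 2-fold higher and 30 lay between. Over all listed transcripts 38.8% were 2-fold lower and 14.6% were 2-fold higher. A listed mean of 0 was given for 11 of these others in the cold and for 5 in the control. Summed over each locus, the level was at least 2-fold lower in the cold at 29 of the 43 and 4-fold lower at 16 of them, within 2-fold at 13 and 2-fold higher at 1. The assembler shares out reads where transcripts overlap, so the value of a single transcript at such a locus is uncertain and the sum is less so. The sums cover listed transcripts only. A transcript listed alone may also share its locus with assembled transcripts not listed, as the ending of MSTRG.24366.7 implies.

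Whether transcripts were exchanged or reads were assigned differently was not tested. The itgav locus held the lowest ratio of the set. Its 8 transcripts all start at the same base and have 3 exons, and their levels summed to 43.9 FPKM in cold acclimated cells and 40.1 FPKM in control cells. Beside MSTRG.30077.8, MSTRG.30077.5 was listed at 0 in cold acclimated cells, against 13.5 FPKM in control cells. MSTRG.30077.6 went the other way, with 16.2 FPKM in cold acclimated cells, against 3.40 FPKM in control cells. MSTRG.30077.9, MSTRG.30077.11 and MSTRG.30077.12 had 7.80, 4.76 and 6.52 FPKM in cold acclimated cells, against a listed 0 in control cells. The sum at this locus thus differed little between the groups.

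Opposite directions were also listed at MSTRG.16062 on chromosome 21, with no gene named. MSTRG.16062.2 had the highest control level of the set, 1.38 FPKM in cold acclimated cells, against 13.7 FPKM in control cells, and MSTRG.16062.1, whose ends lie within a few bases of it, had 5.39 FPKM in cold acclimated cells, against a listed 0 in control cells. At pcdh15a, a protocadherin of hair cells, MSTRG.5300.5 had 0.441 FPKM in cold acclimated cells, against 5.07 FPKM in control cells. The longer MSTRG.5300.2 there had 3.89 FPKM in cold acclimated cells, against 1.77 FPKM in control cells. At nrbf2b the locus of MSTRG.3605.7 summed to 238 FPKM in cold acclimated cells, against 458 FPKM in control cells, a smaller difference than that of this transcript. At the single locus whose sum was 2-fold higher, MSTRG.12758.6 at pimr198, a Pim-related kinase gene, had 0.863 FPKM in cold acclimated cells, against 4.84 FPKM in control cells, within a locus sum of 479 FPKM in cold acclimated cells, against 167 FPKM in control cells. At MSTRG.25023 all 12 listed transcripts were in the set, each at least 4-fold lower in the cold.

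**Figure D5:**
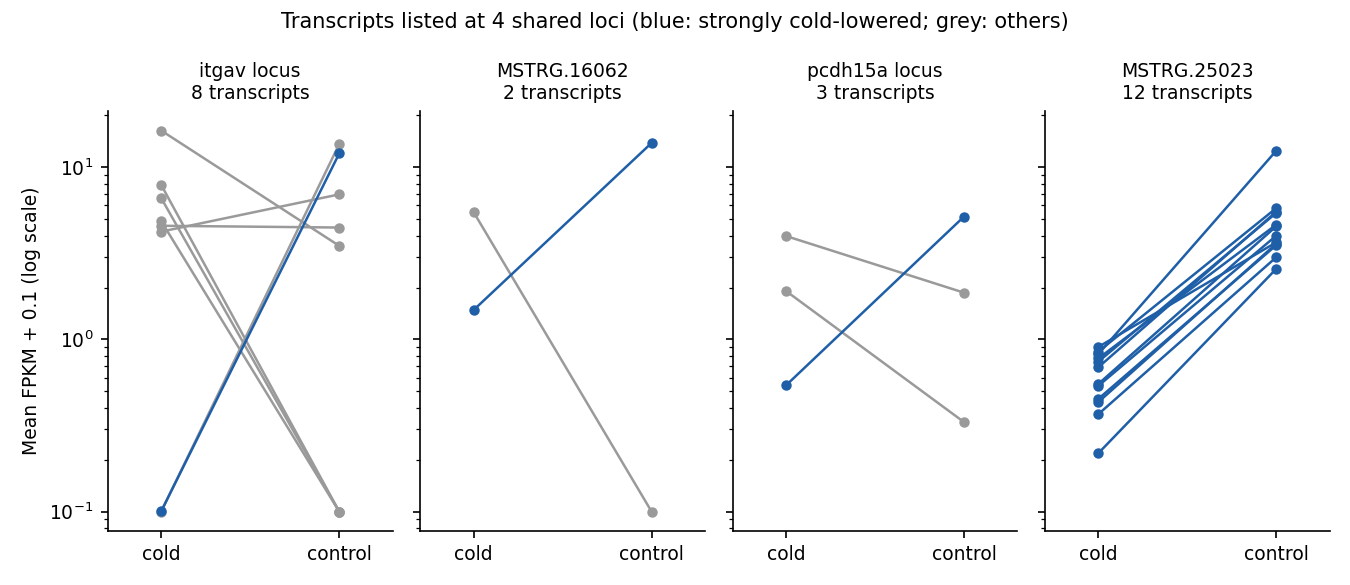
Mean FPKM plus 0.1 (log scale) of every listed transcript at 4 shared loci, with cold acclimated cells on the left and control cells on the right of each panel, blue lines for strongly cold-lowered transcripts and grey for the others. Blue and grey lines cross at itgav (8 transcripts), MSTRG.16062 (2) and pcdh15a (3), while the 12 lines of MSTRG.25023 all run lower in the cold.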

How the data were processed

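The study cultured ZF4 cells as 3 cold acclimated and 3 control cultures. Per the labels and the study's methods, stranded total RNA libraries depleted of ribosomal RNA were aligned with HISAT2 2.1.0 to GRCz10, assembled and merged with StringTie 1.3.3, and filtered by class, length, exon number, coding potential and level. The authors deposited 1 table with mean FPKM per group, exon number and length (other values) for each lncRNA. It also holds the authors' log2 fold changes, p-values, FDR and direction calls, which were not used. No column of per-sample values was left unmapped (0). The planned tests over cultures could not be run on group means.

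From these means log2((cold + 0.1)/(control + 0.1)) was computed with Python 3.11.15, pandas 2.3.3, numpy 2.4.6, scipy 1.17.1 and statsmodels 0.14.6, and plotted with matplotlib 3.10.9. The rule was tested on simulated data. A locus is the identifier shared by transcripts, and a gene is the one the table names. Shares have 95% Wilson intervals, which cover counting error only. The 10 gene lists were matched by symbol without regard to case, with the ending of duplicated names removed. Transcripts named in the text are those of lowest ratio, highest control level, most exons, greatest and least length and widest interval, those at the edge, those at genes with several or of a list, and those with primers. Some of the runs and loci given in detail, the transcripts in them and the example genes of each list were picked after their values were seen. The members and lists were chosen with earlier results of these data known. Alternatives were the pseudocount, the ratio and level limits, a scaling to equal medians, 1 transcript per locus, overlapping intervals as loci, a 10 kb window and the comparison set. Leaving out overlapping neighbours or those in the set, gaps of 10 kb in runs and leaving out MSTRG.25023 were added after seeing the data. Genome sequence was not used here, since no GRCz10 sequence was at hand.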

Additional observations from a re-analysis of the deposited data

How the results depend on the processing

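The table holds 1 mean per group, so depth, spread between cultures and the effect of any single culture could not be assessed. No paired analysis was possible because no value per culture was given. Leaving out a culture, a replicate block and the sequence features were not run.

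The number of transcripts was 313, and it became 95 with 0.5 FPKM added, 71 with an 8-fold limit on the ratio, 150 after scaling, 596 with a control limit of 1.0 FPKM and 102 with one of 3.0 FPKM. The share with 1 exon, minus that of all remaining transcripts, was -18.2 percentage points, and became -34.8 with 0.5 FPKM added, -28.2 with the 8-fold limit and 1.10 against the same level window. There the difference of median lengths also turned, to -82 nt where it was 317 nt. The share on scaffolds turned as well, being 2.18 points in the report and -0.31 with 0.5 FPKM, -1.36 with the 8-fold limit and -0.24 after scaling. The share with a gene named moved to -10.0 with 0.5 FPKM where it was -2.96, and among spliced transcripts to -24.1 where it was -15.8. The share at shared loci was 9.90 points, and became 26.5 with 0.5 FPKM, 19.1 with the 8-fold limit, 3.29 with 1 transcript per locus, 3.57 against the level window and 16.1 with overlapping intervals as loci. The neighbours' median log2 ratio, minus that around remaining transcripts, was -1.37, and became -0.97 with 0.5 FPKM, -1.65 with the 8-fold limit, -2.02 after scaling and -0.88 with neighbours outside the set alone. With 0.5 FPKM, the 8-fold limit and scaling, in that order, the other transcripts at shared loci that were 2-fold lower, 50 in the report, numbered 19, 25 and 23, and transcripts in runs, 99 in the report, numbered 24, 19 and 36, with 62 at 1 transcript per locus. The cause was not tested. The margin was a set fold change for counts, and for shares and medians a distance taken from the width of the 95% interval of the set. Of the alternative values 68 stayed within the margin, 53 left it and 5 turned in sign. Of the 50 counts by gene list among them, 22 stayed within it.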

Other observations

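Named genes outside the lists held 59 of the 313 transcripts, and a few are given here as single values. MSTRG.11395.1 at mhc1uba, a class I MHC gene, had 0.487 FPKM in cold acclimated cells, against 2.46 FPKM in control cells (log2 ratio -2.13), while the other transcripts at this gene had log2 ratios of -0.31 and -0.40. MSTRG.15447.2 at lifrb, a cytokine receptor, had 0.612 FPKM in cold acclimated cells, against 3.36 FPKM in control cells, and MSTRG.15434.1 at C7, a complement component, had 0.170 FPKM in cold acclimated cells, against 1.63 FPKM in control cells, beside another transcript at C7 with a log2 ratio of -0.40. MSTRG.17260.1 at syt2a, a synaptotagmin, had 0.0832 FPKM in cold acclimated cells, against 1.99 FPKM in control cells (log2 ratio -3.52). MSTRG.25411.1 at dnm1b, a dynamin of vesicle uptake, had 0.387 FPKM in cold acclimated cells, against 2.17 FPKM in control cells. At egf, a growth factor whose receptor gene egfra also had a transcript in the set, MSTRG.6371.1 had 0.237 FPKM in cold acclimated cells, against 3.31 FPKM in control cells. These genes were picked after their values were seen, and no list was counted for them.

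Of the 24 transcripts on 13 unplaced scaffolds, KN150031.1 and KN150187.1 held 4 each and KN149826.1 held 3, and the other scaffolds held 1 or 2 each. On KN150187.1 the lowest was MSTRG.31466.2, with 0.0234 FPKM in cold acclimated cells, against 2.49 FPKM in control cells (log2 ratio -4.39), beside MSTRG.31466.1 of the same locus with 0.647 FPKM in cold acclimated cells, against 3.16 FPKM in control cells.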
